A study of Homo sapiens with 6 samples.

Results

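The genes described here are the writers, readers and erasers of N6-methyladenosine (m6A), a methyl mark on adenosines of messenger RNA. The set was chosen by name and holds 10 genes, of 35580 genes to which transcripts of the deposited tables could be joined. It comprises 4 writers (METTL3, METTL14, WTAP and METTL16), 4 readers (YTHDF1, YTHDF2, YTHDF3 and YTHDC1) and 2 erasers (ALKBH5 and FTO). All 10 had enough counts to be tested, among 15204 genes that did.

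Most m6A in messenger RNA is placed by a nuclear complex in which METTL3 carries the catalytic site, METTL14 helps to hold the RNA and WTAP acts as an adaptor, while METTL16 is a separate methyltransferase with few known targets. YTH-domain proteins bind the mark, YTHDC1 in the nucleus and the YTHDF proteins in the cytoplasm, where they are known for effects on decay and translation of messenger RNA. ALKBH5 and FTO are oxygenases that remove methyl groups from adenosine. The data here are transcript levels, so they bear on the abundance of these RNAs and not on the mark itself.

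The series sequenced messenger RNA of Rh30, a human alveolar rhabdomyosarcoma line positive for the fusion of PAX3 and FOXO1. A group of 3 control libraries was compared with 3 libraries of cells in which DDX5, a DEAD-box RNA helicase, had been knocked down (siDDX5). The libraries are biological replicates 1 to 3 of each group, all from the same fusion-positive line. The control agent, the dose and the time after knockdown are not given in the sources used here.

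Control libraries held 21265569 to 26156858 estimated counts and siDDX5 libraries 18202402 to 19971888, so depth was lower in each knockdown library than in any control. In these libraries 3 counts corresponded to 0.115 to 0.165 CPM (counts scaled to a common library total, here without TMM factors), far below the level of any of the 10 genes. Gene levels in CPM are given with TMM factors. DDX5 itself had 1356, 1438 and 1141 CPM in the control libraries, against 551, 506 and 397 CPM with siDDX5, and the groups did not overlap. Its log2 fold change was -1.44 (standard error 0.15; adjusted p 0.0115 by edgeR). All 9 muscle and rhabdomyosarcoma markers examined, MYOD1, MYOG and DES among them, were above 3 counts in every library, with summed levels of 1189 to 1517 TPM (a scale adjusted for transcript length, with the same total in every library) in control and 1143 to 1217 TPM in siDDX5 cells. Marker lists of blood, endothelial, epithelial and fibroblast cells summed to 0.314 to 7.04 TPM over the 6 libraries. At or under 3 counts in every library were 2 of 4 blood and 1 of 3 epithelial markers, but 0 of 2 endothelial and 0 of 3 fibroblast markers. The highest of these markers was PECAM1, with 207 to 298 estimated counts per library (3.97 to 6.88 TPM). On the first principal component both replicate 3 libraries stood apart from the other 4. Of all genes tested, 26 (0.171%) had an edgeR adjusted p under 0.05, 8 higher and 18 lower in siDDX5 cells, and in a fit that adds the replicate number as a block there were 377 (2.48%). In bulk RNA, a lower level in every cell and fewer cells holding the RNA cannot be told apart.

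None of the 10 genes was called as different between siDDX5 and control cells, without or with the replicate block. The differences that were seen were small, from -0.09 (METTL3) to 0.29 (YTHDF2) on the log2 scale. The 4 readers, 3 of the 4 writers and ALKBH5 had higher mean levels in siDDX5 cells, and METTL3 and FTO had lower ones. YTHDF2, at 1.22-fold, had the largest difference. The alternative DESeq2 Wald test called 0 of the 10 as well, against 327 of all 15204 genes tested.

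Per length of transcript, the 10 genes covered a range from 19.4 TPM (METTL16) to 92.5 TPM (ALKBH5) in control cells. In descending order of mean level the values were 92.5 ± 25.3 for ALKBH5, 91.6 ± 12.4 for WTAP, 72.8 ± 7.07 for FTO, 62.7 ± 5.76 for YTHDF2 and 59.4 ± 4.23 TPM for YTHDC1 (SD, n = 3 each). YTHDF1 followed at 59.0 ± 9.64, METTL3 at 55.7 ± 3.19, METTL14 at 39.0 ± 7.87, YTHDF3 at 33.2 ± 3.36 and METTL16 at 19.4 ± 3.25 TPM (SD, n = 3 each). Neighbours in this order were separate in range at 3 places, between WTAP and FTO, between METTL3 and METTL14, and between YTHDF3 and METTL16. The other 6 neighbouring pairs overlapped. Summed over all transcripts, coding or not, METTL3 therefore had a higher TPM than its partner METTL14 in every control library (52.2 to 58.4 against 34.3 to 48.0 TPM). The same held in every siDDX5 library (45.7 to 54.6 against 35.7 to 43.9 TPM). Protein-coding transcripts held 40.8% ± 6.24 of METTL3 counts but 95.8% ± 1.87 of METTL14 counts in control cells (SD, n = 3 each), and coding transcripts alone were not compared. In siDDX5 cells the order differed only in that YTHDF2 (74.7 ± 2.85 TPM) stood above FTO (66.6 ± 10.1 TPM) and YTHDF1 above YTHDC1. Both pairs overlapped in range there.

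**Figure D1:**
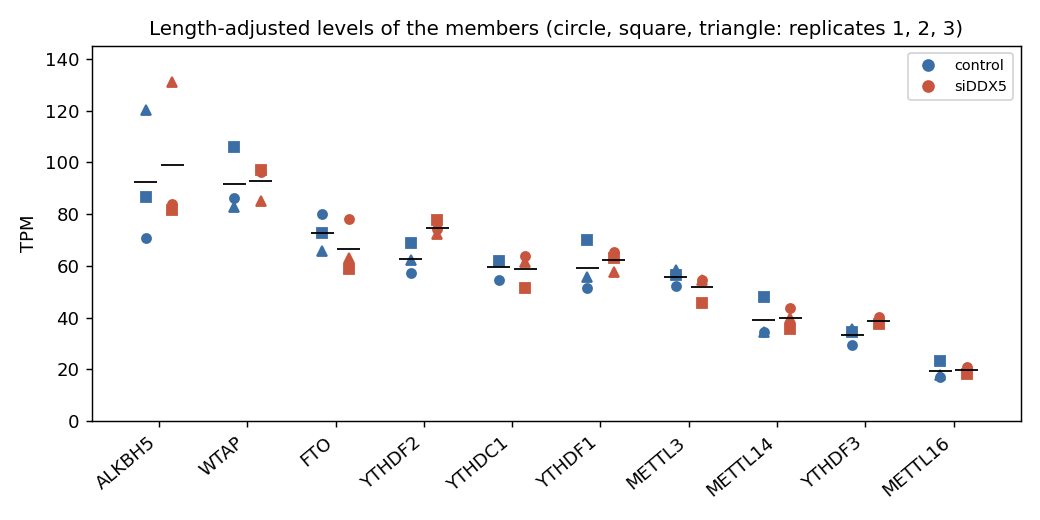
Length-adjusted levels (TPM, linear axis) of the 10 genes in 3 control (blue) and 3 siDDX5 (red) libraries, ordered by the control mean, with horizontal bars at the group means. ALKBH5 and WTAP lie highest, METTL16 lowest at about 20 TPM, and the 2 highest ALKBH5 values, 120 and 131 TPM, both come from replicate 3.

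Whether reads of the 3 cytoplasmic readers can be told apart depends on how alike their sequences are. The longest run of bases shared by the main transcripts of YTHDF1 and YTHDF2 is 20 bases, within the coding sequence of both, and it is shown because it is the place where these paralogs come closest. Capitals mark the shared run, the flanking bases are in lower case, and both sequences are read 5′ to 3′ on the transcript from GENCODE release 29 (GRCh38).
YTHDF1, chr20:63202733-63202762, minus strand: tcatcAAGAGCTACTCTGAGGACGAcatcc
YTHDF2, chr1:28743511-28743540, plus strand: tcattAAGAGCTACTCTGAGGACGAtattc

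The longest runs shared by YTHDF3 with YTHDF1 and with YTHDF2 were 17 bases each, and METTL3 and METTL14 shared at most 12. None of the 3 readers therefore shared a 31-base word with another of them, 31 bases being the default word length of the quantifier. The word length of the authors' index is not given in the sources used here. Words shared with other genes on the same strand made up 20.7% of YTHDF2, from the pseudogene YTHDF2P1, and 17.3% of WTAP, mostly from AL158050.1. YTHDF2P1 was listed at 0 to 2.01 estimated counts per library and AL158050.1 at 0 in all 6. For the other 8 genes the share lay between 0% (METTL3 and ALKBH5) and 6.36% (FTO). On the opposite strand METTL3 shared 14.6% of its words with other genes, chiefly with TOX4, whose log2 fold change was -0.13 (edgeR adjusted p 0.659). WTAP shared 6.97%, chiefly with SOD2 (0.04, adjusted p 0.914), and ALKBH5 12% with AC087164.1, which was not analysed here. The kit was strand-specific per the labels, but the strand setting of the quantification is not given, so reads of such pairs may not have been told apart.

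Among the writers, mean levels differed by at most 1.14-fold between groups. METTL3 (ENSG00000165819.11, chromosome 14, 21498133 to 21511375, minus strand) had 55.9, 58.1 and 58.5 CPM in the control libraries, against 53.5, 51.2 and 57.5 CPM with siDDX5, for replicates 1, 2 and 3. The siDDX5 library was the lower in all 3 same-numbered pairs, but the groups overlapped. The means were 57.5 ± 1.42 and 54.0 ± 3.21 CPM (SD, n = 3 each), with a log2 fold change of -0.09 (standard error 0.10; adjusted p 0.783 by edgeR). METTL14 (ENSG00000145388.14, chromosome 4, 118685368 to 118715433, plus strand) had 48.2, 57.0 and 57.1 CPM in the control libraries, against 58.7, 61.1 and 65.2 CPM with siDDX5. Every siDDX5 library lay above every control library for this gene, although on the TPM scale the groups overlapped. Its log2 fold change was 0.19 (standard error 0.11; adjusted p 0.557 by edgeR), or 1.14-fold with a 95% confidence interval of 0.960 to 1.35. The catalytic partners METTL3 and METTL14 thus had differences of opposite sign, neither of which passed the threshold.

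WTAP, the adaptor (ENSG00000146457.15, chromosome 6, 159725585 to 159756319, plus strand), had 79.9, 96.9 and 80.7 CPM in the control libraries, against 86.2, 99.8 and 80.4 CPM with siDDX5, for replicates 1, 2 and 3. In both groups replicate 2 was the highest, and the groups overlapped almost completely. The log2 fold change was 0.05 (standard error 0.12; adjusted p 0.915 by edgeR). METTL16 (ENSG00000127804.12, chromosome 17, 2405562 to 2511891, minus strand), the separate methyltransferase, had 52.8, 64.1 and 48.8 CPM in the control libraries, against 53.9, 63.6 and 58.4 CPM with siDDX5. Replicate 2 was again the highest of each group. Its log2 fold change was 0.09 (standard error 0.13; adjusted p 0.846 by edgeR).

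**Figure D2:**
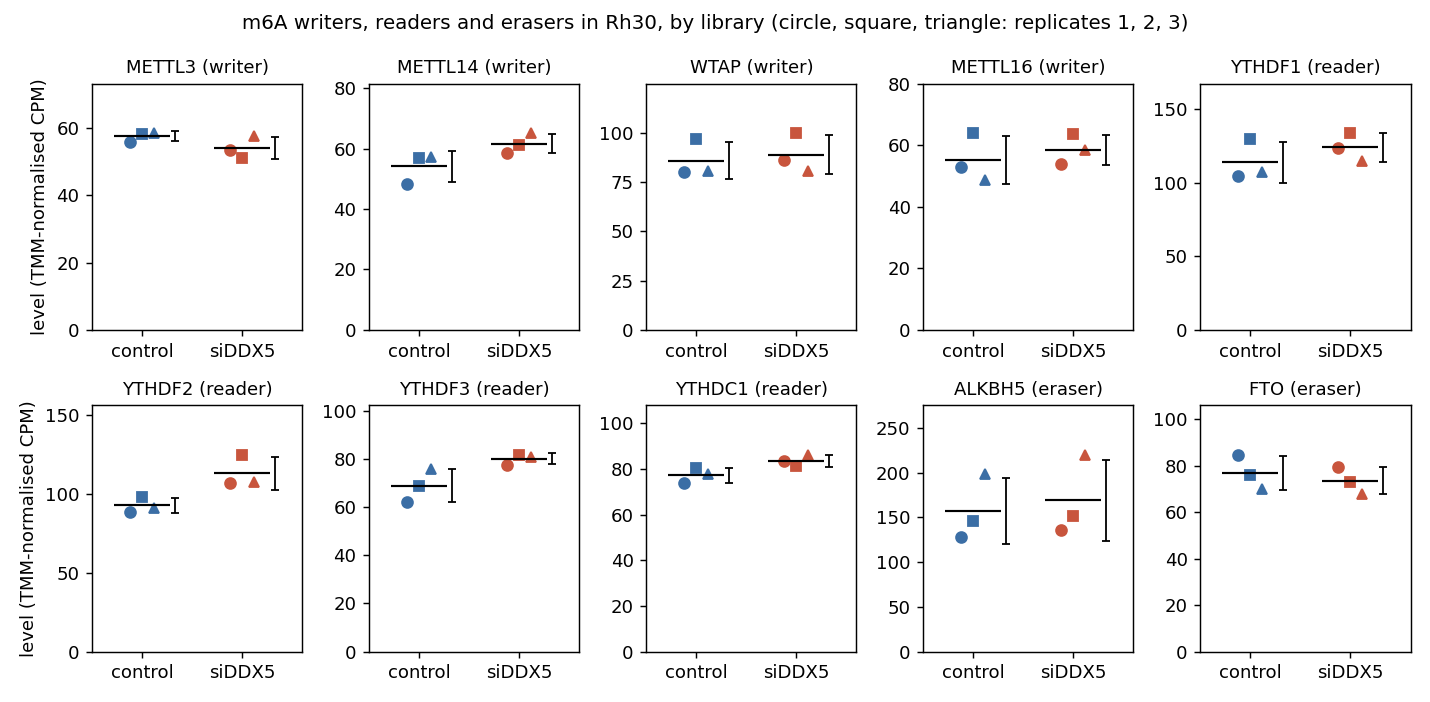
Normalised level (CPM, linear axes from 0) of each gene in each library, with the group mean (horizontal line) and SD (bar, n = 3). METTL14, YTHDF2, YTHDF3 and YTHDC1 show siDDX5 libraries all above the control libraries, and ALKBH5 shows both replicate 3 libraries far above the others.

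All 4 readers had higher mean CPM in siDDX5 cells, with a median log2 fold change of 0.17, although the sign of YTHDC1 turned on the TPM scale. In each of these 4 readers the siDDX5 library had the higher CPM of all 3 same-numbered pairs, which held for 21.7% of all genes. YTHDF2, a cytoplasmic reader known for recruiting deadenylation machinery to methylated messages (ENSG00000198492.15, chromosome 1, 28736621 to 28769775, plus strand), had 89.0, 98.1 and 91.4 CPM in the control libraries. The siDDX5 libraries had 107.1, 125.1 and 107.5 CPM, so the groups were separate. The means of 92.8 ± 4.74 and 113.3 ± 10.3 CPM (SD, n = 3 each) gave a log2 fold change of 0.29 (SE 0.11, 95% confidence interval 0.05 to 0.53). Its edgeR adjusted p over all genes was 0.358, and 0.0994 with the replicate block, so it was not called in either fit. The TPM values did not overlap either, at 57.3 to 68.8 TPM in control and 72.2 to 77.8 TPM in siDDX5 cells.

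YTHDF3 (ENSG00000185728.16, chromosome 8, 63168553 to 63212786, plus strand), its paralog, had 62.1, 68.9 and 75.7 CPM in the control libraries, against 77.5, 81.7 and 80.8 CPM with siDDX5, for replicates 1, 2 and 3. The siDDX5 values lay close together and just above the highest control value. The log2 fold change was 0.22 (standard error 0.11; adjusted p 0.489 by edgeR). YTHDF1 (ENSG00000149658.17, chromosome 20, 63195429 to 63216234, minus strand), a cytoplasmic reader known for a link to translation, had 104.7, 129.6 and 107.0 CPM in the control libraries, against 123.6, 133.7 and 114.3 CPM with siDDX5. These groups overlapped, since control replicate 2 lay above siDDX5 replicates 1 and 3. Its log2 fold change was 0.12 (standard error 0.12; adjusted p 0.746 by edgeR).

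YTHDC1, the nuclear reader (ENSG00000083896.12, chromosome 4, 68310387 to 68350089, minus strand), had 73.7, 80.2 and 77.5 CPM in the control libraries, against 83.3, 81.1 and 86.2 CPM with siDDX5, for replicates 1, 2 and 3. The groups were separate, but control replicate 2 and siDDX5 replicate 2 almost met. The log2 fold change was 0.12 (standard error 0.10; adjusted p 0.695 by edgeR). On the TPM scale the YTHDC1 groups overlapped, with means of 59.4 ± 4.23 and 58.9 ± 6.49 TPM (SD, n = 3 each), and the sign turned to -0.01 with limma-trend on log2(TPM + 1).

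The erasers had differences of opposite sign, both smaller than the spread of the replicates within a group. Within same-numbered pairs each kept its sign in all 3. ALKBH5 (ENSG00000091542.8, chromosome 17, 18183078 to 18209954, plus strand) had 127.8, 146.2 and 198.6 CPM in the control libraries, against 135.6, 151.4 and 220.2 CPM with siDDX5, for replicates 1, 2 and 3. In both groups replicate 3 was far the highest and replicate 1 the lowest, and within each pair the siDDX5 library was slightly the higher. The log2 fold change of 0.10 had the largest standard error of the 10 genes, 0.21, and by edgeR its adjusted p was 0.892. Under the replicate block the standard error was 0.083 and the adjusted p was 0.562. The differences within pairs were 0.09, 0.05 and 0.15 on the log2 scale for replicates 1, 2 and 3.

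FTO (ENSG00000140718.20, chromosome 16, 53701692 to 54158512, plus strand) had 84.8, 76.2 and 70.2 CPM in the control libraries, against 79.6, 73.0 and 68.0 CPM with siDDX5, for replicates 1, 2 and 3. Here replicate 1 was the highest and replicate 3 the lowest of each group, the opposite order to ALKBH5. Within pairs the log2 differences of FTO were -0.09, -0.06 and -0.05, and the log2 fold change of -0.07 had a standard error of 0.11 (edgeR adjusted p 0.864).

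Set against all genes, 0 of the 10 passed an adjusted p of 0.05 in edgeR's quasi-likelihood test, where 0.171% of all genes did. At an unadjusted p under 0.05 there was 1, YTHDF2, where 11.3% of all genes passed and 5.29% passed with a higher level. With the replicate block there were 3 (YTHDF2, YTHDF3 and METTL14) at that level, all higher, where 20.4% of all genes passed and 10.1% passed with a higher level, and again 0 after adjustment, where 2.48% did. In 4 of the 10 genes (METTL14, YTHDF2, YTHDF3 and YTHDC1) every siDDX5 library lay above every control library, which held for 8.85% of all genes, and in 0 did every siDDX5 library lie below, against 9.2% (18% for either side). On the TPM scale 2 of the 10, YTHDF2 and YTHDF3, had every siDDX5 library above every control library, against 5.48% of all genes. In 6 of the 10 the siDDX5 library was higher in all 3 same-numbered pairs, against 21.7% of all genes, and in 2 it was lower in all 3, against 21.2%. The median log2 fold change was 0.11 over the 10 genes and 0.00 over all genes tested, and 8 of the 10 were above 0 (7 in limma fits on log2 TPM), against 49.6% of all genes. Without both replicate 3 libraries, again 8 were above 0, the median was 0.09 and 0 of the 10 passed at an adjusted or an unadjusted p of 0.05. The 95% confidence intervals of the 10 log2 fold changes reached from -0.36 to 0.57, both bounds being those of ALKBH5. The 10 genes were chosen with earlier results of these data known, so the counts given here describe them and are no test of the set.

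**Figure D3:**
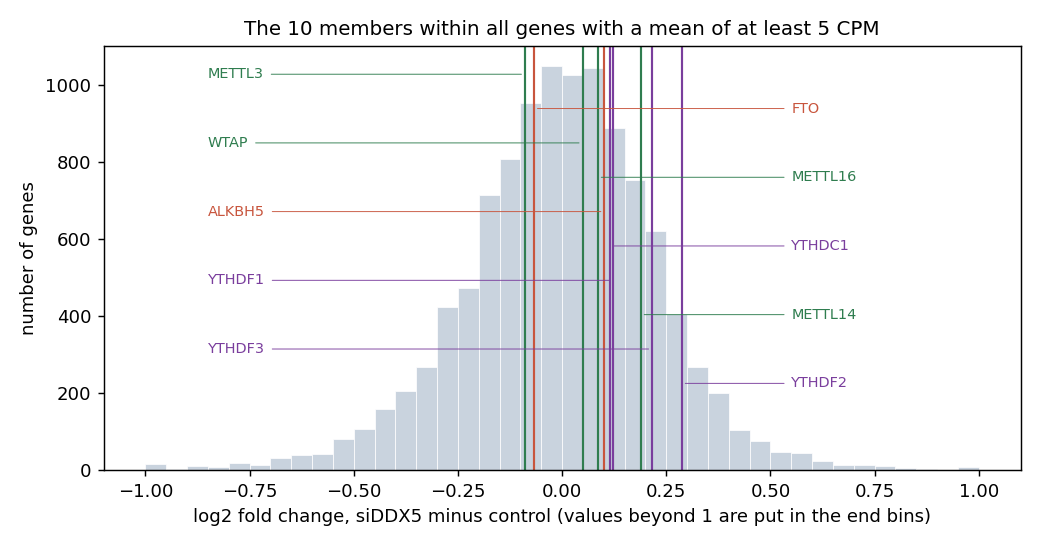
Histogram of log2 fold changes (siDDX5 minus control) over 10989 genes that averaged 5 CPM or more, with a vertical line for each of the 10 genes (green for writers, purple for readers, red for erasers). The 10 lines lie between -0.09 and 0.29, where 5% of these genes lie below -0.39 and 5% above 0.35.

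The level pattern of METTL3 over the 6 libraries was also compared with that of every other gene of at least 5 CPM, by the root mean square difference of log2 CPM after each gene was centred on its own mean. Its nearest genes among 10988 were ATRN (0.0248), TRIM39 (0.0257) and TEPSIN (0.0258). The other members ranked from 1329 (YTHDC1) to 8699 (ALKBH5), and METTL14 ranked 3879. These are descriptions over 6 libraries that share their normalisation.

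The tables list 105 transcripts of the 10 genes, of which 65 had enough counts to be tested singly. None of these was called by edgeR among 61666 transcripts tested, where 0% of all transcripts were called, and 3 had an unadjusted p under 0.05, where 7.08% did. With the replicate block 0 were called and 7 passed the unadjusted level, where 7.96% of all transcripts did. The DESeq2 Wald test called 2 of the 65, the main YTHDF2 transcript ENST00000373812.8 and the minor YTHDF3 transcript ENST00000517371.5. In all, that test called 807 of the 61666 transcripts. How reads were split between transcripts is itself an estimate, whose error enters none of these tests.

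Most YTHDF2 counts lay on the protein-coding ENST00000373812.8, with 90.0%, 87.0% and 91.2% of the gene in control and 91.6%, 91.9% and 92.5% in siDDX5 replicates 1, 2 and 3. Its level was 82.0 ± 1.06 CPM in the control and 105.9 ± 11.2 CPM in the siDDX5 group (SD, n = 3 each), and its edgeR log2 fold change was 0.37 (SE 0.11, adjusted p 0.604). The YTHDF3 transcript ENST00000517371.5 held 0.823%, 3.33% and 3.30% of its gene in control and 5.62%, 15.1% and 9.74% in siDDX5 cells. All 3 siDDX5 shares were above all 3 control shares, with an edgeR log2 fold change of 2.28 (SE 0.65, adjusted p 0.591). Another minor YTHDF3 transcript, ENST00000621890.4, was listed at 52.2, 18.6 and 23.8 estimated counts in control libraries and at 0.0279, 0 and 0 in siDDX5 libraries (edgeR adjusted p 0.279). These minor transcripts were picked after their values were seen, as the members' transcripts with an unadjusted p under 0.05. The main YTHDF3 transcript, ENST00000539294.6, held 82.7% ± 4.23 of the gene in control and 81.0% ± 4.90 in siDDX5 cells (SD, n = 3 each).

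Transcript usage, the division of a gene among its transcripts, was called in 0 of the 10 genes with diffSpliceDGE in edgeR, against 1.61% of 10689 genes tested, and in 0 with the replicate block, against 1.21%. At an unadjusted p under 0.05 there was 1, YTHDF3 (adjusted p 0.627, and 0.443 with the replicate block), where 5.41% of genes passed (6.24% with the block).

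The members differed widely in how much of their count lay on transcripts annotated as non-coding. METTL3 had 46.3%, 34.0% and 42.2% of its counts on protein-coding transcripts in control and 41.3%, 53.6% and 52.9% in siDDX5 replicates 1, 2 and 3. The remainder lay mainly on transcripts annotated as retained intron (31.8% ± 3.63 in control, 26.5% ± 8.67 in siDDX5 cells) or as targets of nonsense-mediated decay (24.2% ± 4.84 and 20.4% ± 1.57; SD, n = 3 each). For ALKBH5, the retained-intron transcript ENST00000490106.1 held 34.7%, 45.6% and 42.1% of the counts in control and 41.7%, 49.4% and 50.2% in siDDX5 cells. Its share was higher in siDDX5 in all 3 pairs, but the groups overlapped, and its edgeR log2 fold change of 0.35 (SE 0.31) had an adjusted p of 0.873. FTO had 59.7% ± 2.31 and 64.3% ± 3.30 of its counts on protein-coding transcripts in control and siDDX5 cells, and WTAP 80.7% ± 5.00 and 82.4% ± 2.26 (SD, n = 3 each).

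By contrast, METTL14, YTHDF1, YTHDF2 and YTHDF3 had at least 92.8% of their counts on protein-coding transcripts in every library, and METTL16 84.6% to 90.7%. The coding share of YTHDF2 was 92.8%, 93.0% and 94.8% in control and 96.2%, 95.3% and 96.2% in siDDX5 cells, without overlap. YTHDC1 counts were divided evenly, 50% in every library, between the primary assembly and copies of its transcripts outside that assembly, and both were summed for the gene. Of all YTHDC1 counts, copies included, coding transcripts on the primary assembly held 48.1% ± 0.10 in control and 48.6% ± 0.30 in siDDX5 cells. This share was also higher without overlap. It cannot exceed 50%, since the copies carried no annotation here, so it is not comparable with the coding shares of the other genes. The retained-intron share of YTHDC1, of the same total, was lower without overlap (1.92% ± 0.10 and 1.43% ± 0.30, SD, n = 3 each). How many of all genes have such separate shares was not counted. Transcript usage was called for neither YTHDF2 nor YTHDC1 (unadjusted p 0.629 and 0.899 by diffSpliceDGE).

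**Figure D4:**
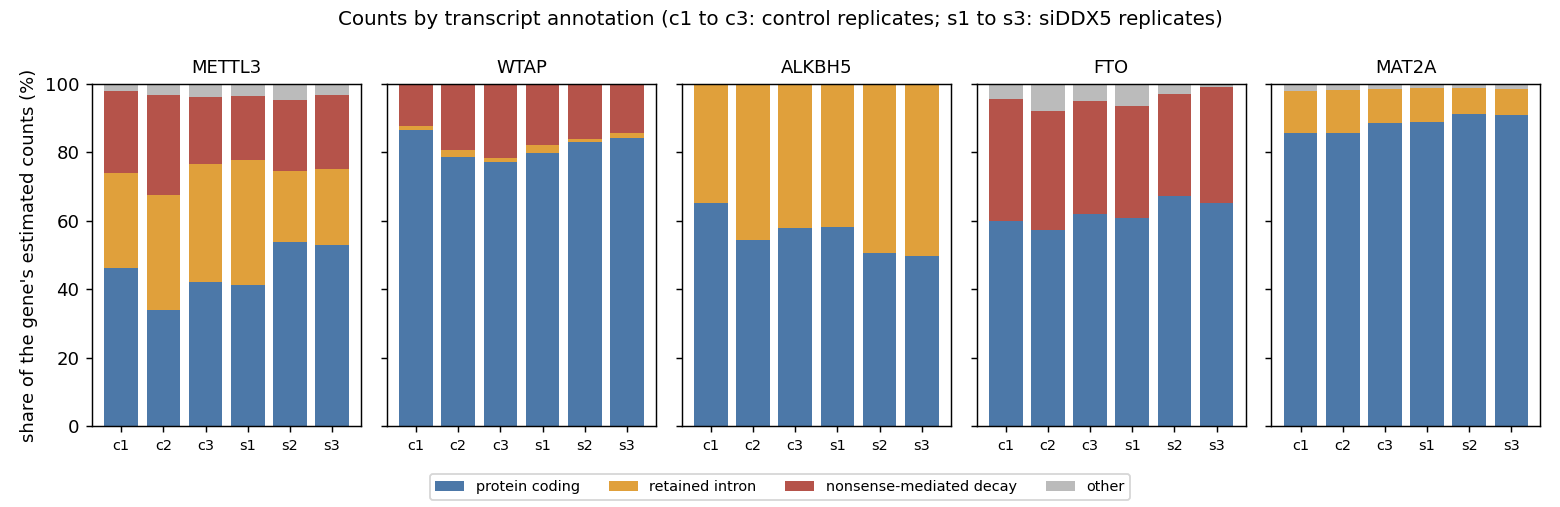
Share of the estimated counts of METTL3, WTAP, ALKBH5, FTO and MAT2A by transcript annotation (%, stacked bars from 0 to 100), 1 bar for each library. The protein-coding share is at least 77.0% in every library for WTAP and MAT2A, and 34.0% to 67.1% over all libraries for METTL3, ALKBH5 and FTO.

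METTL16 is known to bind hairpins in the 3′ UTR of MAT2A, which encodes the enzyme that makes the methyl donor S-adenosylmethionine, and to favour splicing of its last intron. MAT2A is given beside METTL16 for this reason. The word TACAGAGAA, the DNA form of the methylation site of METTL16, was searched on the sense strand of annotated transcripts, and occurs 5 times in MAT2A transcript ENST00000306434.7 (GENCODE release 29, GRCh38, plus strand). All 5 matches lie in the 3′ UTR and are shown with 10 bases on either side, the word in capitals.
MAT2A site 1, chr2:85543802-85543830: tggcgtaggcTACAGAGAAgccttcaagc
MAT2A site 2, chr2:85544589-85544617: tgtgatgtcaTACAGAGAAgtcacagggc
MAT2A site 3, chr2:85544774-85544802: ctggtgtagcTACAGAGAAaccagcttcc
MAT2A site 4, chr2:85544889-85544917: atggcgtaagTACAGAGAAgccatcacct
MAT2A site 5, chr2:85545112-85545140: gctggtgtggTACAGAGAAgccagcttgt

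The word occurs in 2.14% of 83129 protein-coding transcripts, and 2 of 19669 genes, MAT2A included, hold it 5 or more times in a transcript. Among the 10 members only METTL14 holds it, in 1 place, where 3.71% of the 19669 genes hold it in at least 1 transcript. MAT2A had 566, 708 and 553 CPM in the control libraries, against 625, 597 and 543 CPM with siDDX5, for replicates 1, 2 and 3. The groups overlapped, and the log2 fold change was -0.05 (standard error 0.13, adjusted p 0.916 by edgeR). With limma-trend on log2(TPM + 1) the MAT2A difference was -0.20 (adjusted p 0.711). Its retained-intron transcripts together held 12.2%, 12.5% and 9.85% of its counts in control and 10.03%, 7.65% and 7.69% in siDDX5 cells. The siDDX5 share was lower in all 3 pairs, while siDDX5 replicate 1 lay above control replicate 3. Shares by annotation were not counted over all genes. The protein-coding share was 85.7%, 85.6% and 88.6% in control and 88.8%, 91.2% and 90.9% in siDDX5 cells, without overlap, but transcript usage of MAT2A was not called (edgeR adjusted p 1.00).

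A further 20 genes of the m6A pathway were examined as a list, and all were tested. Of these, 6 had higher and 14 lower mean levels in siDDX5 cells, with a median log2 fold change of -0.03 against 0.00 for all genes. A single gene was called, TRMT112, where 0.171% of all genes were, and 4 had an unadjusted p under 0.05 (RBM15 and VIRMA higher, TRMT112 and PRRC2A lower), where 11.3% of all genes passed. With the block the count called was again 1, where 2.48% of all genes were called, and 6 passed the unadjusted level, where 20.4% did. The list was chosen with earlier results of these data known, so these counts describe it and are no test of the pathway.

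TRMT112, a small protein that binds and stabilises several methyltransferases, METTL5 among them, fell in siDDX5 cells. It had 62.6, 62.8 and 55.2 CPM in the control libraries, against 27.6, 37.2 and 32.3 CPM with siDDX5, for replicates 1, 2 and 3, with every siDDX5 library below every control library. The log2 fold change was -0.90 (standard error 0.13; adjusted p 0.0426 by edgeR), which is 0.537-fold with a 95% confidence interval of 0.437 to 0.660. The call was lost in each of the 6 fits that left out a single library (log2 fold change -1.01 to -0.79, adjusted p 0.0555 to 0.230), while the direction stayed. METTL5, the N6 methyltransferase of 18S ribosomal RNA that works with TRMT112, had 19.8, 21.0 and 17.8 CPM in the control libraries, against 14.4, 18.4 and 16.2 CPM with siDDX5. METTL5 was lower in all 3 pairs, with overlap between groups, at a log2 fold change of -0.26 (standard error 0.14; adjusted p 0.527 by edgeR).

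In the complex around METTL3 and METTL14, none of the 5 further subunits listed was called. RBM15, which helps to direct the complex to its targets, had 45.9, 45.6 and 45.0 CPM in the control libraries, against 59.5, 57.5 and 55.2 CPM with siDDX5, for replicates 1, 2 and 3, without overlap and with little spread in either group. Its log2 fold change of 0.33 (SE 0.10) had an edgeR adjusted p of 0.244, and 0.0726 with the replicate block. VIRMA, a scaffold of the complex, had 76.2, 86.1 and 82.2 CPM in the control libraries, against 95.9, 98.5 and 92.9 CPM with siDDX5, again without overlap (log2 fold change 0.23, standard error 0.10, adjusted p 0.420 by edgeR). RBM15B, ZC3H13 and CBLL1 had log2 fold changes of -0.14, -0.03 and -0.03, with overlapping groups.

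The 9 other reader proteins of the list were not called either, with log2 fold changes from -0.25 (PRRC2A) to 0.22 (IGF2BP1). Of these, 3 were higher and 6 lower in siDDX5 cells, with a median log2 fold change of -0.01. In all 3 same-numbered pairs, 2 were higher and 3 lower. PRRC2A had 341, 309 and 319 CPM in the control libraries, against 283, 255 and 276 CPM with siDDX5, for replicates 1, 2 and 3, without overlap (log2 fold change -0.25, standard error 0.10, adjusted p 0.382 by edgeR). With transcripts outside the primary assembly left out, its log2 fold change was -3.50 (edgeR adjusted p 0.0861). IGF2BP1, which binds and stabilises target messages, had 166, 177 and 180.0 CPM in the control libraries, against 217, 182 and 211 CPM with siDDX5. Control replicate 3 and siDDX5 replicate 2 almost met, and the log2 fold change was 0.22 (standard error 0.11; adjusted p 0.476 by edgeR). Per length, the most abundant of the 20 was HNRNPA2B1, with 2056 ± 84.7 TPM in control cells and 1916 ± 179 TPM in siDDX5 cells (SD, n = 3 each).

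**Figure D5:**
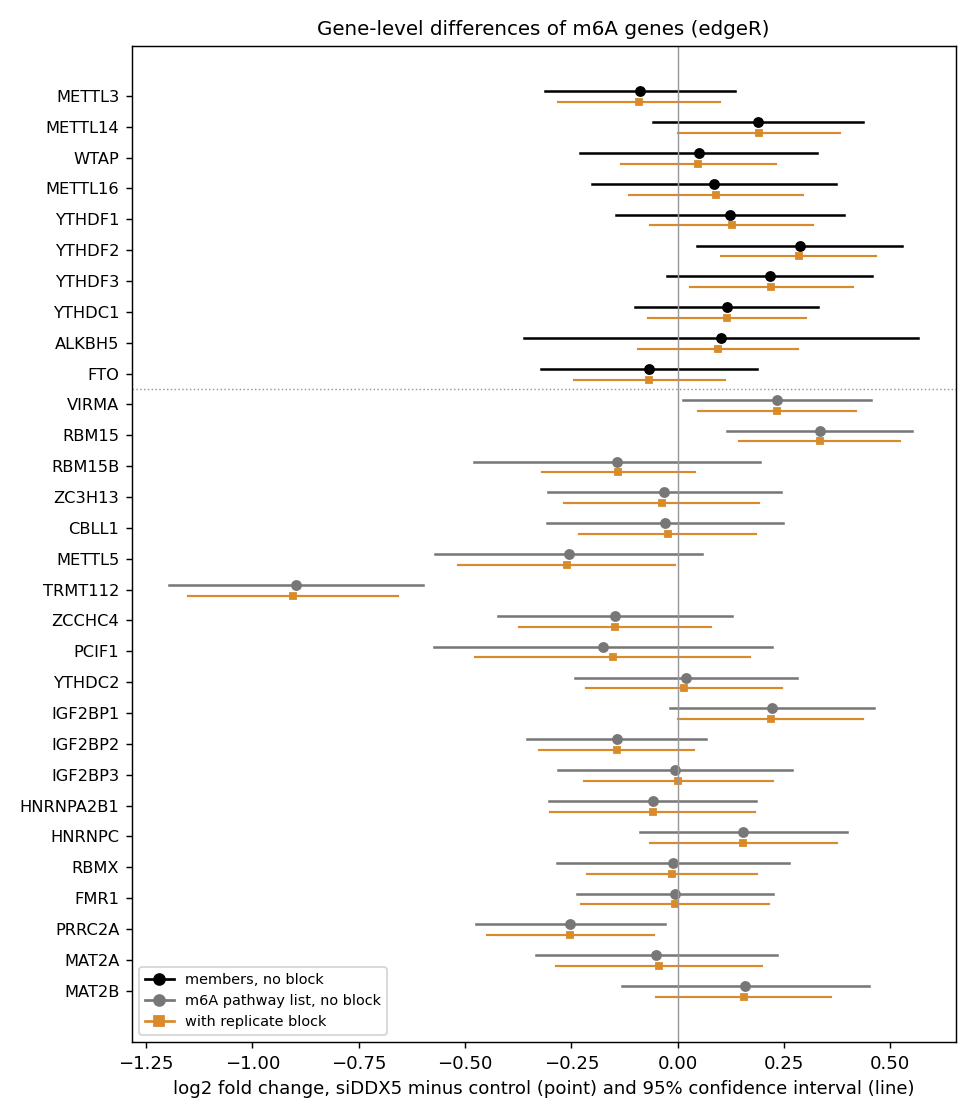
Log2 fold change (siDDX5 minus control) with 95% confidence interval for the 10 members (black, above the dotted line) and 20 further genes of the m6A pathway (grey), with the same from the fit with the replicate block in orange. TRMT112, at -0.90, stands apart to the left, and the intervals of the members include 0 without the block except that of YTHDF2.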

How the data were processed

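For each of 188753 transcripts the authors deposited 2 values per library, a TPM and an estimated count. The layout is that of kallisto per the file headers, and kallisto 0.46.0, cutadapt 1.11 and GRCh38 are listed in the submitters' processing notes. The deposited estimated counts carry no normalisation, while each deposited TPM is adjusted by the authors for transcript length. A stranded mRNA kit was used per the labels. The annotation release and the strand setting are not given in the sources used here.

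Transcripts were joined to genes by identifier with GENCODE release 29 (169797 transcripts), then by symbol for haplotype and patch copies (15315), which covered 99.26% to 99.32% of the counts. The other 3641 were left out. A further join that had been planned, by position in the table, was not made, because it would name a gene by its row's place. Counts were summed per gene and rounded. In edgeR 4.0.16 under R 4.3.3, genes were kept by filterByExpr, normalised by TMM and compared by the quasi-likelihood test, with only the group in the model and Benjamini-Hochberg adjustment over all 15204 genes. A gene was called at an adjusted p under 0.05. A standard error is the size of the log2 fold change over the square root of F. CPM values of genes and of single transcripts are both TMM-normalised, with factors computed separately for genes and for transcripts. The same test was run on transcripts, and transcript usage was tested with diffSpliceDGE and Simes p-values per gene. The steps were tested on simulated counts. DESeq2 1.42.0 and limma 3.58.1 served as alternatives.

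The titles number the replicates but do not say that same-numbered libraries were made together. Over 15204 genes, the deviations of same-numbered libraries from their group means correlated at 0.21, 0.27 and 0.56 for replicates 1, 2 and 3. Since no label gives a shared batch, the main fit does not pair the libraries. Standard errors, intervals and adjusted p-values are from that fit unless the block is named. The fit with a replicate block is an alternative, given where it changes a call or a count. The p-values measure the spread between 3 replicates a group of a single line.

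The 10 genes and the pathway list were chosen with earlier results of these data known. Named by rule were the 10 genes, MAT2A and every called gene of the list. So were the 3 highest and 3 lowest fold changes of the list among genes of at least 5 CPM. The rule also took transcripts with at least 10% of a member's counts, but only some of those transcripts are named here. Other names were picked with their values in view. Leaving out both replicate 3 libraries was an alternative added after the data had been examined.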

Additional observations from a re-analysis of the deposited data

How the results depend on the processing

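The number of the 10 genes called was 0 under all 16 alternatives, with 0 to 3 of them at an unadjusted p under 0.05. YTHDF2 kept its sign throughout (0.21 to 0.33, adjusted p 0.0994 to 0.836). With the replicate block, which pairs same-numbered libraries, 377 genes were called in place of 26, all 26 among them, and no call of a named gene changed. The DESeq2 Wald test called 327 genes, the unfiltered fit 129, length-scaled TPM counts 2, and limma-trend 1 with either pseudocount (1 or 0.1 added to TPM). The number was 0 to 16 in fits without a single library, with 0 when control replicate 1 or siDDX5 replicate 1 was left out (1242 and 2036 at an unadjusted p under 0.05), and 5 without both replicate 3 libraries. DDX5 was no longer called with length-scaled TPM counts (-1.37) or with limma-trend at either pseudocount (-1.44 and -1.44), and ranged from -1.54 to -1.30 without a single library, where 3 fits lost the call.

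TRMT112 was called in 6 of 16 alternatives and stayed lower in all (-1.01 to -0.79). Besides the fits without a library, its adjusted p was over 0.05 with length-scaled TPM counts (0.145) and with limma-trend (0.0816 and 0.0906). The DESeq2 Wald test called 2 of 65 transcripts of the 10 genes, against 807 of 61666 in all, where edgeR called 0. With no filter, WTAP alone of the 10 was called for transcript usage (1 gene, diffSpliceDGE adjusted p 0.0497). There 396 of all genes were called, a share not computed here, against 172 of 10689 (1.61%) with the filter. The sign of 5 genes turned, all with differences near 0. YTHDC1 was -0.01 and -0.02 with limma-trend at pseudocounts of 1 and 0.1. Across the fits without a single library WTAP ran from -0.04 (without siDDX5 replicate 2) to 0.15, and ALKBH5 from -0.12 (without siDDX5 replicate 3) to 0.30, with -0.02 without control replicate 1. FTO ran from -0.13 to 0.01 (without control replicate 1), and MAT2A from -0.11 to 0.08 (without control replicate 2), with 0.01 without siDDX5 replicate 3. Where a result changed, the cause was not tested.

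With 3 libraries a group, standard errors of 0.10 to 0.21 on the log2 scale without the block limit what could be called. With the replicate block the standard errors of the 10 genes were 0.078 to 0.090. The error of assigning reads to transcripts is in neither the standard errors nor the SD values.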
